A study of Mus musculus with 9 samples.

Results

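The miR-200 family and miR-205 are microRNAs (miRNAs) typical of epithelial cells, and 8 of their mature forms were followed in vesicles that cultured mouse podocytes of a conditionally immortalized line shed into their medium. The members were fixed by name. They were mmu-miR-200b-3p, mmu-miR-200a-3p, mmu-miR-429-3p, mmu-miR-200a-5p, mmu-miR-200b-5p, mmu-miR-200c-3p, mmu-miR-141-3p and mmu-miR-205-5p, out of 1915 mouse identifiers in each table. All 8 were listed in at least 1 of the 9 libraries, against 479 of the 1915 identifiers, and 5 of the 8 were listed in all 9 libraries. Podocytes, which cover the outer face of the capillaries in the glomerulus, the filter of the kidney, were differentiated for 10 days and then treated for 48 h. The 3 groups, each of 3 libraries, were high glucose (30 mM glucose), mannitol (5.3 mM glucose with 24.7 mM mannitol, the control for osmolality) and normal glucose (5.3 mM glucose). All came from the same line, grown in medium with fetal bovine serum. Vesicles were collected by polymer precipitation of the culture supernatant, which can also bring down other RNA carriers, and nothing in the labels tells if vesicles of the serum itself were removed. Separate cultures are not stated for the replicates, and every p-value here reflects library-to-library spread alone, which may be technical.

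A miRNA is cut from a hairpin precursor, whose arms give a 5p and a 3p product, and it pairs with messenger RNAs mainly through its seed, the bases at positions 2 to 8. The miR-200 family keeps cells epithelial by repressing Zeb1 and Zeb2, transcription factors that switch off E-cadherin, and miR-205 acts on the same pair. In the kidney the family is best known from tubule epithelium. Podocytes are specialised epithelial cells that carry some mesenchymal features.

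The 8 mature sequences are shown because the members fall into groups by seed. They are given 5′ to 3′ from RefSeq (build GRCm38.p6), with the seed in capitals.
mmu-miR-200b-3p: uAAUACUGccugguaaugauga
mmu-miR-429-3p: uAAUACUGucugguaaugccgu
mmu-miR-200c-3p: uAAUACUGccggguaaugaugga
mmu-miR-200a-3p: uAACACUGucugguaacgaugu
mmu-miR-141-3p: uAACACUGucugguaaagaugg
mmu-miR-200a-5p: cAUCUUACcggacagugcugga
mmu-miR-200b-5p: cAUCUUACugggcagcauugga
mmu-miR-205-5p: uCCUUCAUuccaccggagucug

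The first seed was shared by 3 members, the second by 2 and that of the 5p arms by 2, while mmu-miR-205-5p stood alone. No other mouse miRNA of the RefSeq table had any of the 4 seeds. That table held a mature sequence for 403 of the 479 listed identifiers, so the seeds of the others were not compared. With positions counted from 1 at the 5′ end, mmu-miR-200b-3p and mmu-miR-200a-3p differed at 4 of 22 positions, of which only U4C lay in the seed. The closest pairs of different hairpins differed at 2 of 22 positions each. These were mmu-miR-200b-3p and mmu-miR-200c-3p (U11G and A22G) and mmu-miR-200a-3p and mmu-miR-141-3p (C17A and U22G). Reads of such close relatives could be assigned to the wrong copy, which was not tested. No member had counts identical to those of another identifier, which shows only that no entry was a duplicate. Wrong assignment of some reads would not give identical counts.

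The hairpins lie at 3 places on the minus strand of the mouse genome (GRCm38). Mir200b, Mir200a and Mir429 sit within 1846 bases on chromosome 4, at 156055681 to 156055750, 156054896 to 156054985 and 156053905 to 156053987, in an intron of Ttll10. Mir429 also overlaps an exon of the noncoding Gm13648. Mir200c (124718322 to 124718390) and Mir141 (124717914 to 124717985) sit 336 bases apart on chromosome 6, inside the noncoding gene Gm15884 and outside its exons, and Mir141 also overlaps an exon of Gm29008, a transcript still to be tested experimentally. Mir205 lies on chromosome 1 at 193507463 to 193507530, over an exon of the long noncoding RNA 4631405K08Rik.

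Total miRNA counts ran from 725211 to 2553690 per library. The files hold no count between 1 and 9, which makes a listed 0 anything up to 9 reads, and the 10-read limit corresponds to 3.92 to 13.8 CPM, the count scaled to the total of all miRNA counts in the library. The miR-30 miRNAs typical of podocytes were listed in every library, at a summed 149949 to 224982 CPM under high glucose, 106713 to 177083 CPM under mannitol and 126420 to 140209 CPM under normal glucose. Of the kidney tubule markers 3 of 4 were listed in all 9 libraries, summing to 3323 to 5008 CPM under high glucose, 2348 to 3211 CPM under mannitol and 2286 to 3483 CPM under normal glucose, and miR-204-5p was listed at 0 throughout. Of the blood markers 4 of 5 were listed, summing to 3124 to 4523 CPM under high glucose, 3826 to 10981 CPM under mannitol and 5032 to 8621 CPM under normal glucose, and miR-142a-3p was listed at 0 throughout. Most of this sum was miR-486a-5p, at 2985 to 10582 CPM, while miR-451a stood at 127.9 to 399.2 CPM. Only these 2 of the 5 were listed in all 9 libraries. Liver miR-122-5p was present in all 9, at 9508 to 22511 CPM. The part of such RNA in the levels of the members was not tested.

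The chromosome 4 cluster supplied nearly all miR-200 reads. Most abundant was mmu-miR-200b-3p, which ranked 42nd to 55th of all miRNAs. It stood at 2814, 3568 and 2857 CPM in the 3 high glucose libraries, 2788, 2875 and 2234 CPM under mannitol, and 3025, 2357 and 2675 CPM under normal glucose. The 9 libraries differed by at most 1.60-fold and the groups overlapped, with means of 3080 ± 423 CPM under high glucose, 2632 ± 348 CPM under mannitol and 2686 ± 334 CPM under normal glucose (SD, n = 3 each).

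Next came mmu-miR-200a-3p, the most abundant member with the other 3p seed. It stood at 856.3, 1397 and 1339 CPM under high glucose, 938.0, 1485 and 864.4 CPM under mannitol, and 867.2, 907.9 and 1097 CPM under normal glucose. Its highest library was mannitol replicate 2 and its lowest high glucose replicate 1, so the groups overlapped here too. The third product of the cluster, mmu-miR-429-3p, which has the seed of mmu-miR-200b-3p, stood at 311.6, 289.0 and 392.8 CPM under high glucose, 249.0, 275.1 and 255.1 CPM under mannitol, and 408.6, 199.6 and 364.9 CPM under normal glucose. In CPM all 3 high glucose libraries lay above all 3 mannitol libraries, while the normal glucose libraries spanned both.

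The 5p arms of the same hairpins were rarer. For mmu-miR-200a-5p the values were 227.5, 203.7 and 192.7 CPM under high glucose, 272.3, 221.6 and 149.8 CPM under mannitol, and 308.5, 155.5 and 186.1 CPM under normal glucose. For mmu-miR-200b-5p they were 165.5, 109.7 and 82.2 CPM under high glucose, 223.4, 114.6 and 162.1 CPM under mannitol, and 192.9, 172.9 and 90.3 CPM under normal glucose. For both arms the libraries of the 3 groups overlapped.

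The chromosome 6 cluster was close to the limit of the files. The counts of mmu-miR-200c-3p were 0, 13 and 19 in high glucose, 42, 12 and 10 with mannitol, and 16, 14 and 26 in normal glucose, or at most 31.6 CPM, in mannitol replicate 1. Its partner mmu-miR-141-3p was listed in only 2 libraries, with 11 counts in high glucose replicate 3 and 13 in normal glucose replicate 3. In the other 7 it had at most 9 reads, which allows 3.97 to 12.4 CPM.

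Listed reads of the chromosome 4 cluster outnumbered those of the chromosome 6 cluster in every library. In the 8 libraries with listed reads of the chromosome 6 cluster the ratio was 125 to 832, with a median of 438. High glucose replicate 1 had 3173 reads of the chromosome 4 cluster and none listed of the other. With every listed 0 taken as 9 reads, the most a 0 can hide, the ratio was 117 to 438 over all 9 libraries. Within libraries both clusters share depth and scaling, but the efficiency with which adapters join each sequence can differ between miRNAs and was not tested.

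The order of levels within the family was nearly the same in each library. The level of mmu-miR-200b-3p exceeded that of mmu-miR-200a-3p in 9 of 9 libraries, and mmu-miR-200a-3p exceeded mmu-miR-429-3p in 9 of 9. Further down, mmu-miR-429-3p exceeded mmu-miR-200a-5p in 8 of 9 and mmu-miR-200a-5p exceeded mmu-miR-200b-5p in 7 of 9. The levels of mmu-miR-205-5p and mmu-miR-200c-3p could not be ordered, the first being higher in 5 libraries and tied in 2. These mature forms are 22 or 23 bases long, so their CPM needs no scaling for length.

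**Figure D1:**
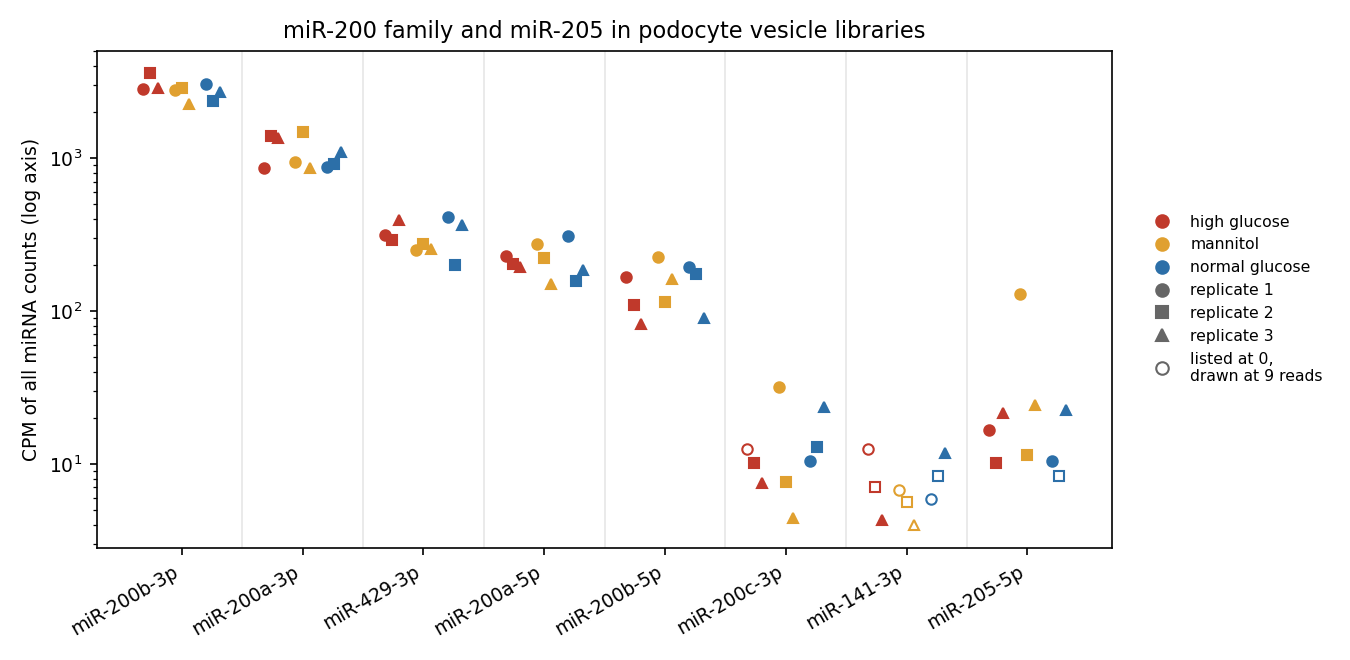
Level of each of the 8 members in each of the 9 libraries, in CPM of all miRNA counts on a log axis; colour is the group, shape the replicate number, and open symbols are libraries listed at 0, drawn at the 9 reads that a 0 can hide. The chromosome 4 products lie from 82.2 to 3568 CPM. Their groups overlap, except that all high glucose libraries lie above all mannitol libraries for miR-429-3p. The levels of miR-200c-3p, miR-141-3p and miR-205-5p lie near the limit except for miR-205-5p in mannitol replicate 1, at 129.4 CPM.

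Summed over the 7 miR-200 members, levels were 4943 ± 604 CPM under high glucose, 4383 ± 662 CPM under mannitol and 4356 ± 510 CPM under normal glucose (SD, n = 3 each), or 0.367% to 0.558% of all miRNA counts. Of the family's reads, mmu-miR-200b-3p made up 62.3% ± 3.21 in high glucose, 60.2% ± 2.17 with mannitol and 61.6% ± 1.39 in normal glucose (SD, n = 3 each). By seed, members with the sequence of mmu-miR-200b-3p at positions 2 to 8 held 74.3% ± 3.91 of the reads of both 3p seeds in high glucose, 73.0% ± 4.44 with mannitol and 75.7% ± 3.61 in normal glucose (SD, n = 3 each). The lowest share was 68.0%, in mannitol replicate 2, and the highest 79.9%, in normal glucose replicate 1. For this share by seed, the differences between the group means were smaller than the SD within each group.

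Both arms could be compared for 2 hairpins, miR-200b and miR-200a. Their sequences are shown to place the arms, in capitals, 5′ to 3′ on the minus strand of chromosome 4 (RefSeq, GRCm38.p6), the first capital run being the 5p and the second the 3p arm.
Mir200b: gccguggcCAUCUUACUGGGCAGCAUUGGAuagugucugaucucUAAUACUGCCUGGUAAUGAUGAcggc
Mir200a: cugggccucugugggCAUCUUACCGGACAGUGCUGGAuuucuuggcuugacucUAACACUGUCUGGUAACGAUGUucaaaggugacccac

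The 3p arm was the more abundant one of both hairpins in every library. The ratio of counts from the same library does not depend on scaling. For miR-200b there were 17.0, 32.5 and 34.7 reads of the 3p arm per 5p read in high glucose, 12.5, 25.1 and 13.8 with mannitol, and 15.7, 13.6 and 29.6 in normal glucose. The means were 28.1 ± 9.66 in high glucose, 17.1 ± 6.94 with mannitol and 19.6 ± 8.70 in normal glucose (SD, n = 3 each), and the groups overlapped. The 3p share of miR-200b reads ran from 92.6% (95% exact binomial interval 91.7% to 93.4%, counting error only) in mannitol replicate 1 to 97.2% (96.8% to 97.6%) in high glucose replicate 3.

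For miR-200a the ratio was lower, at 3.76, 6.86 and 6.95 in high glucose, 3.44, 6.70 and 5.77 with mannitol, and 2.81, 5.84 and 5.90 in normal glucose. In each group replicate 1 was the lowest, and these 3 libraries, at 2.81 to 3.76, lay below the other 6, at 5.77 to 6.95. The group means were 5.86 ± 1.81 in high glucose, 5.31 ± 1.68 with mannitol and 4.85 ± 1.77 in normal glucose (SD, n = 3 each), closer to each other than the libraries within a group. The remaining arms of the member hairpins, miR-200c-5p, miR-141-5p, miR-429-5p and miR-205-3p, were listed at 0 in all 9 libraries.

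**Figure D2:**
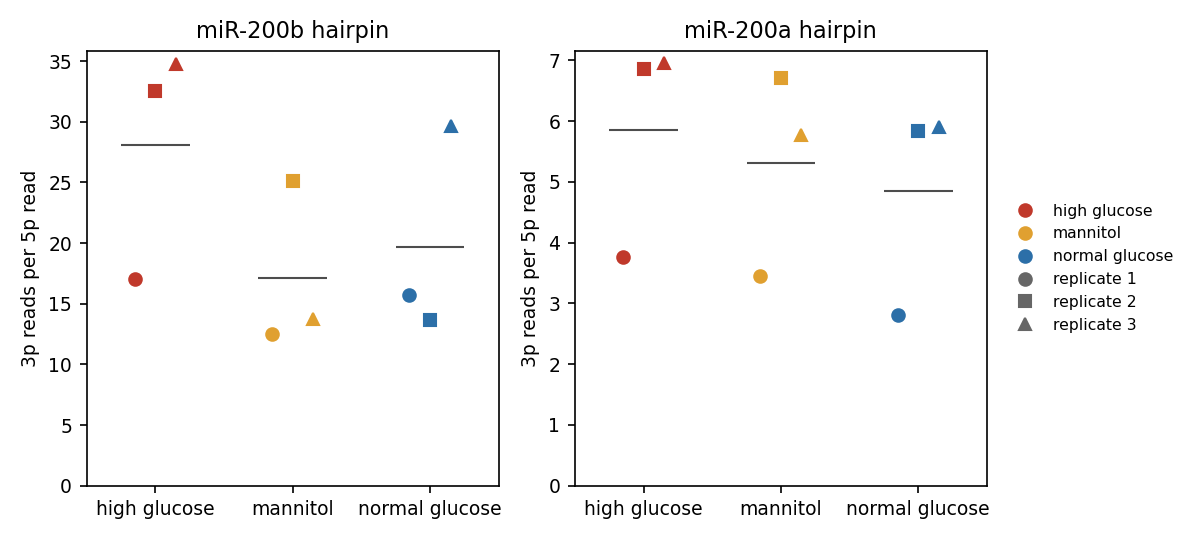
Reads of the 3p arm per read of the 5p arm for the miR-200b hairpin (left) and the miR-200a hairpin (right) in each library, by group; shape is the replicate number and bars are group means. Groups overlap in both panels, and replicate 1 of each group is lowest for miR-200a, at 2.81 to 3.76 against 5.77 to 6.95 in the other 6 libraries.

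High glucose was compared with normal glucose, which asks what the treatment as a whole does to these miRNAs. None of the members passed. Fold changes are log2 values from edgeR's quasi-likelihood fit over all 361 miRNAs that passed its filter on low counts, with p adjusted by the Benjamini-Hochberg method and a threshold of 0.05. Of the 8 members 7 were tested, all but mmu-miR-141-3p. The 3p products had values of 0.31 (SE 0.27, 95% interval -0.27 to 0.89) for mmu-miR-200b-3p, 0.45 (SE 0.34, -0.28 to 1.18) for mmu-miR-200a-3p and 0.15 (SE 0.31, -0.50 to 0.80) for mmu-miR-429-3p. The 5p arms had 0.04 (SE 0.32) for mmu-miR-200a-5p and -0.32 (SE 0.38) for mmu-miR-200b-5p. The intervals of the 3 chromosome 4 3p products thus reach at most 1.18 upward and -0.50 downward.

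By edgeR 0 of the 7 tested members passed the adjusted threshold, as did 0% of all tested miRNAs, and the smallest adjusted p of any miRNA was 0.995. At an unadjusted p under 0.05 there were 0 of the 7 members, beside 2.77% of all tested miRNAs. DESeq2 and limma-voom also called 0 members, with 0 at an unadjusted p under 0.05 in each. Over all tested miRNAs both tools called 0, with 15 by DESeq2 and 5 by limma-voom at that unadjusted p. Positive values were found for 5 of the 7, with a median of 0.15, where 46.5% of all tested miRNAs were positive and their median was -0.04.

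The groups of 1 of the 8 members did not overlap as listed, near the 9.42% of all tested miRNAs. That was mmu-miR-200c-3p, lower in high glucose than in normal glucose in 9 of 9 pairs (log2 value -1.16, 95% interval -4.00 to 1.69, SE 1.34). The 0 listed for high glucose replicate 1 allows up to 12.4 CPM, above the 10.4 CPM of normal glucose replicate 1, so these groups may overlap. Under the alternatives the value of mmu-miR-200c-3p ran from -1.78, without high glucose replicate 2, to -0.54, with listed zeros at 9 reads, and it was -0.68 without high glucose replicate 1.

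Set against mannitol, high glucose differs in glucose at the same osmolality. None of the members passed here either, and the most even difference was that of mmu-miR-429-3p. It averaged 331 ± 54.6 CPM under high glucose and 260 ± 13.6 CPM under mannitol (SD, n = 3 each), or 0.50 on the log2 scale (95% interval -0.15 to 1.15, SE 0.31, adjusted p by edgeR = 0.71). High glucose was higher in CPM in 9 of 9 pairs of libraries, which gives the smallest p that an exact permutation test of 3 against 3 libraries allows, 0.1 (two-sided). Over the 24 such tests of the 8 members in 3 comparisons the smallest adjusted exact permutation p was 0.96. As the only 1 of the 8 members whose groups did not overlap, it stands beside 10.2% of all tested miRNAs. Under the alternatives its value ran from 0.01, when scaled to the library constant of the files, to 0.65, without mannitol replicate 2. The separation also rests on the scaling. Counts over the library constant were 10.68, 16.13 and 31.45 under high glucose and 14.72, 18.54 and 24.76 under mannitol, so there the groups overlapped.

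The more abundant 3p products had 0.39 (SE 0.27, 95% interval -0.19 to 0.97) for mmu-miR-200b-3p and 0.28 (SE 0.34, -0.45 to 1.01) for mmu-miR-200a-3p. These directions rest on the scaling, since relative to the library constant they were -0.13 and -0.16, and the median over all tested miRNAs was then -0.59. The 5p arms had 0.12 (SE 0.32) for mmu-miR-200a-5p, or -0.40 with that scaling, and -0.33 (SE 0.37) for mmu-miR-200b-5p, or -1.0 with that scaling. For mmu-miR-200c-3p the value was -0.93 (SE 1.33), with a range of -1.63 to 0.15 when single libraries were left out, the positive end being without mannitol replicate 1.

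By edgeR 0 of the 7 tested members passed, as did 0% of all tested miRNAs, with a smallest adjusted p of 0.704 among all. At an unadjusted p under 0.05 there were 0 of the 7, beside 5.26% of all tested miRNAs. DESeq2 and limma-voom called 0 members, with 0 at an unadjusted p under 0.05 in each. Over all tested miRNAs DESeq2 called 1 and limma-voom 0, with 26 and 29 at that unadjusted p. Positive values were found for 4 of the 7 (median 0.12, median of all tested -0.04), beside 46.5% of all tested miRNAs. Relative to the library constant they were found for 1 of 7, beside 17.2% of all tested miRNAs.

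Mannitol was compared with normal glucose to see what added osmolality does alone. The 5 chromosome 4 products had values from -0.34 (SE 0.31, 95% interval -0.99 to 0.31) for mmu-miR-429-3p to 0.17 (SE 0.34, -0.56 to 0.89) for mmu-miR-200a-3p, with -0.08 (SE 0.27) for mmu-miR-200b-3p. Relative to the library constant all 7 tested members were positive, from 0.07 for mmu-miR-429-3p to 2.55 for mmu-miR-205-5p, with 0.36 for mmu-miR-200b-3p and 0.62 for mmu-miR-200a-3p. Of all tested miRNAs 89.8% were then positive, with a median of 0.50, and 3 of the 7 lay above that median. By edgeR 0 of the 7 members and 0% of all tested miRNAs passed. At an unadjusted p under 0.05 there was 1 of the 7, mmu-miR-205-5p, beside 1.39% of all tested miRNAs, and DESeq2 and limma-voom called 0 members, with 0 at that p. Over all tested miRNAs these 2 tools called 0, with 7 by DESeq2 and 3 by limma-voom at that p. None of the 8 members had groups that did not overlap, where 3.32% of all tested miRNAs did. The comparisons share their libraries in pairs, so they are not independent.

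**Figure D3:**
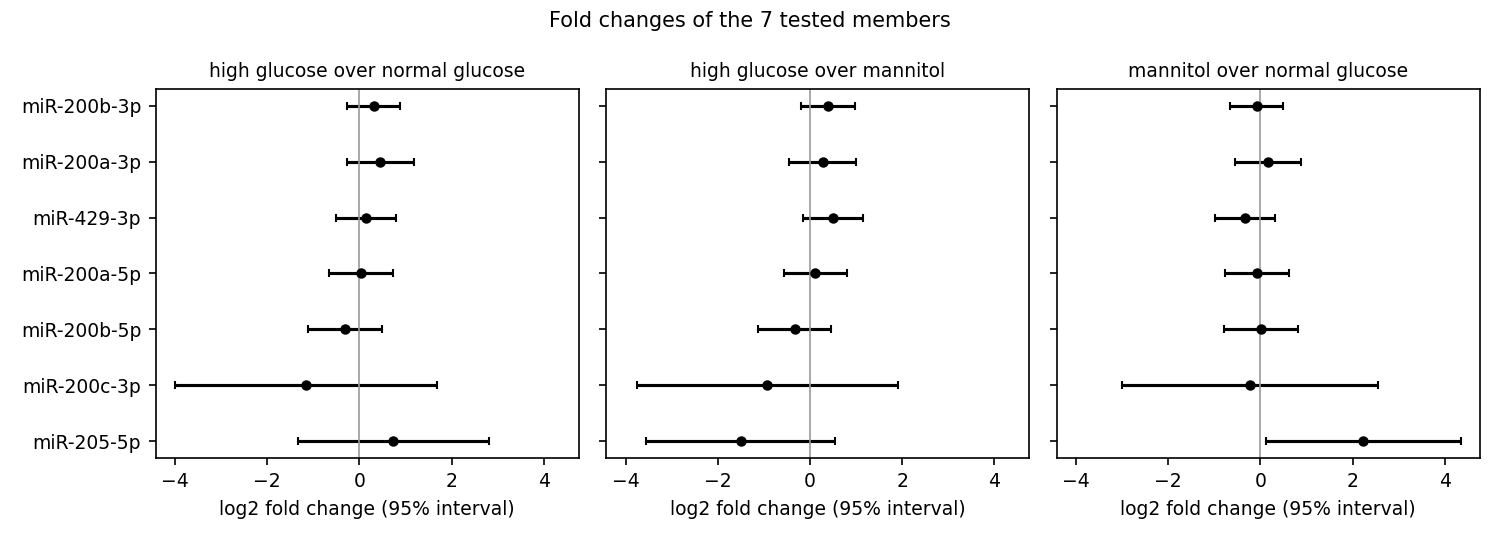
Log2 fold changes of the 7 tested members with 95% intervals from the joint edgeR fit, in the 3 comparisons named above the panels. Intervals include 0 throughout except for miR-205-5p in mannitol over normal glucose (0.12 to 4.34, adjusted p by edgeR = 1.0), and those of miR-200c-3p and miR-205-5p are the widest.

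The squamous epithelial mmu-miR-205-5p was low in most libraries. It had 12, 13 and 55 counts in high glucose, 172, 18 and 55 with mannitol, and 16, 0 and 25 in normal glucose. In CPM these were 16.6, 10.2 and 21.5 in high glucose, 129.4, 11.3 and 24.2 with mannitol, and 10.4, 0 and 22.6 in normal glucose. Mannitol replicate 1 alone stood apart, and the other 8 libraries overlapped across the groups.

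In mannitol over normal glucose mmu-miR-205-5p differed by 2.23 on the log2 scale (95% interval 0.12 to 4.34, SE 0.99, adjusted p by edgeR = 1.0), with mannitol higher in 8 of 9 pairs. In high glucose over mannitol it had -1.50 (SE 0.96, -3.55 to 0.55), and in high glucose over normal glucose 0.73 (SE 0.97, -1.34 to 2.80). Under the alternatives mannitol over normal glucose ran from 0.80, without mannitol replicate 1, to 3.28, without normal glucose replicate 3. High glucose over mannitol ran from -1.95, without mannitol replicate 2, to -0.06, without mannitol replicate 1. High glucose over normal glucose ran from 0.16, without normal glucose replicate 2, to 1.74 by limma-voom, and it was 1.65 without normal glucose replicate 3 and 1.26 with the replicate block.

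By CPM, mannitol replicate 1 was also the highest library for 3 of the 5 other listed epithelial miRNAs of low level, and for 2 more members. These were mmu-miR-203-3p of skin epithelium at 212.1 CPM, mmu-miR-184-3p of cornea and skin at 103.1 CPM, mmu-miR-375-3p of endocrine and gut epithelium at 43.6 CPM, and the members mmu-miR-200c-3p at 31.6 CPM and mmu-miR-200b-5p at 223.4 CPM. Only some of these stood clear of the rest, since mmu-miR-184-3p reached 101.2 CPM in normal glucose replicate 2 and mmu-miR-375-3p 42.3 CPM in mannitol replicate 3. The remaining 2 peaked elsewhere. The highest library was high glucose replicate 2 for mmu-miR-31-5p, at 126.1 CPM against 93.3 CPM in mannitol replicate 1, and normal glucose replicate 3 for mmu-miR-96-5p, at 103.9 CPM against 39.1 CPM in mannitol replicate 1. CPM leaves out the TMM scaling of the fold changes, whose factor was largest for mannitol replicate 1, at 1.179, against 0.885 for normal glucose replicate 2. With that scaling normal glucose replicate 2 is the highest library for mmu-miR-184-3p, mmu-miR-375-3p and mmu-miR-200b-5p. How many of all miRNAs peak in mannitol replicate 1 was not counted. The summed level of miR-203-3p, miR-205-5p and miR-184-3p was 124.1 to 216.5 CPM under high glucose, 174.5 to 444.6 CPM under mannitol and 148.1 to 238.2 CPM under normal glucose, and all 3 were listed somewhere in each group. This sum includes mmu-miR-205-5p itself, at 129.4 CPM in mannitol replicate 1, so it is no separate view of that library. Any link of miR-203-3p and miR-184-3p with the value of mmu-miR-205-5p was not tested.

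**Figure D4:**
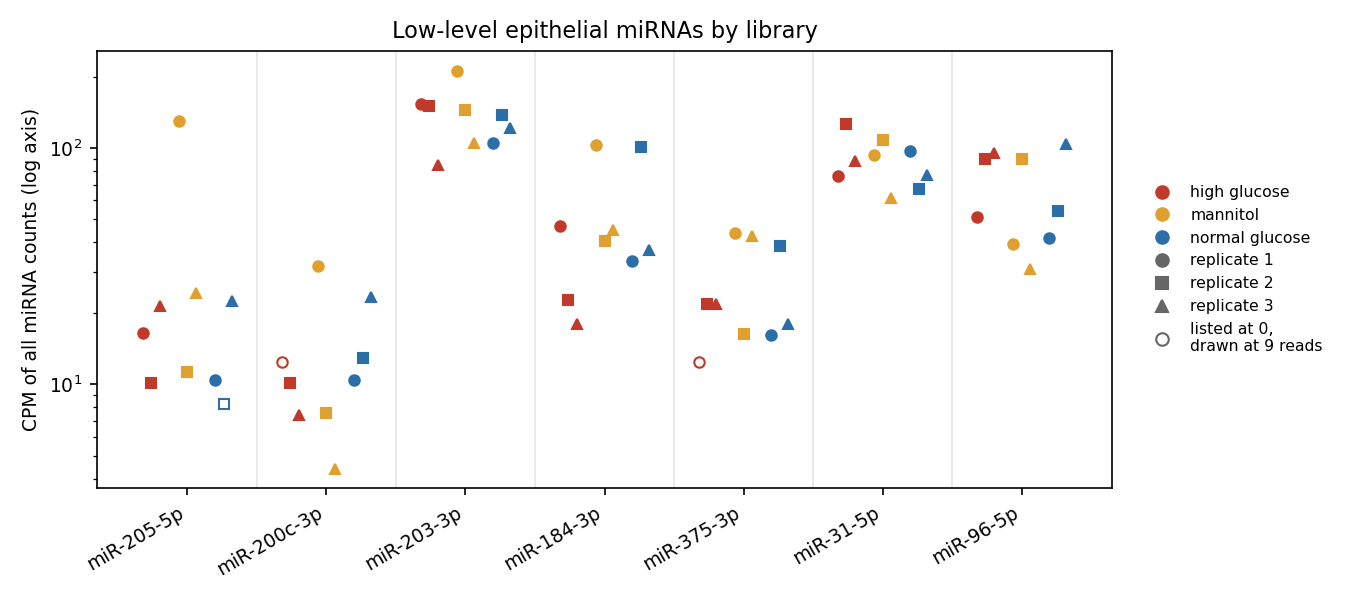
Levels of miR-205-5p, miR-200c-3p and the 5 low-level epithelial miRNAs of the further list in each library, in CPM on a log axis; colour is the group, shape the replicate number, and open symbols are libraries listed at 0, drawn at 9 reads. By CPM, without the TMM scaling of the fold changes, mannitol replicate 1 (circle of the mannitol colour) is the highest library for miR-205-5p, at 129.4 CPM, and for 4 others. It is not for miR-31-5p or miR-96-5p, where it stands at 93.3 and 39.1 CPM.

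A list of 9 further epithelial miRNAs was set beside the members. Of these 7 were listed and tested, and miR-203-5p and miR-31-3p were listed at 0 in all libraries. The most abundant were mmu-miR-183-5p and mmu-miR-182-5p, which come from a cluster of sensory and other epithelial cells and exceeded the whole miR-200 family. For mmu-miR-183-5p the level was 28641 ± 4217 CPM under high glucose, 22526 ± 1815 CPM under mannitol and 24701 ± 3657 CPM under normal glucose (SD, n = 3 each). For mmu-miR-182-5p it was 10379 ± 1345 CPM under high glucose, 7487 ± 244 CPM under mannitol and 8678 ± 1223 CPM under normal glucose (SD, n = 3 each).

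By edgeR 0 of the 7 listed companions passed in any comparison. Positive values were found for 5 in high glucose over normal glucose (median 0.29), for 4 in high glucose over mannitol (median 0.32) and for 3 in mannitol over normal glucose (median -0.04). Of all tested miRNAs 46.5%, 46.5% and 52.1% were positive in these comparisons, with medians of -0.04, -0.04 and 0.01. At an unadjusted p under 0.05 there was 1, mmu-miR-182-5p in high glucose over mannitol, at 0.61 (SE 0.24, adjusted p by edgeR = 0.704), beside 5.26% of all tested miRNAs in that comparison. DESeq2 called it there (0.60, adjusted p by DESeq2 = 0.012), while limma-voom called 0 miRNAs in that comparison.

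The mean log2 level of the 6 tested miR-200 members was most like that of miR-15b-3p (Pearson's r 0.80), miR-493-3p (0.79) and miR-872-3p (0.79) among 354 other tested miRNAs, over the 9 libraries. For mmu-miR-205-5p they were miR-7083-5p (Pearson's r 0.91), miR-345-5p (0.86) and miR-9-5p (0.76). These are descriptions only, over libraries of unequal depth. Each of the 6 averaged at most 50.3 CPM, and listed zeros weigh on all but miR-872-3p, whose lowest value was 12.8 CPM. The family mean also takes in miR-200c-3p, which ran from a listed 0 to 31.6 CPM, while each other member in it differed by at most 2.72-fold. The likeness may thus be largely that of miR-200c-3p, which was not tested.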

How the data were processed

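Small RNA libraries of podocyte vesicles were compared in 3 groups of 3, taken from the treatment label. Per the file headers, each deposited table holds total counts per miRNA, which were used as deposited, and a normalized value. The deposited normalized values are RPM: within a library every value is its count over the same number, whose meaning no source states. The submitters' processing notes name bcl2fastq, BWA and the mouse build mm10, without versions; their settings were not given. Depth ran from 725211 to 2553690 counts, and binomial intervals cover counting error only, since the labels name no molecular identifiers.

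Levels are CPM of all miRNA counts. Fold changes came from edgeR 4.0.16 (R 4.3.3) after filterByExpr and TMM scaling, by the quasi-likelihood test with robust dispersion, fitted to all 9 libraries, with Benjamini-Hochberg adjustment over all 361 tested miRNAs and a threshold of 0.05. The SE was the absolute fold change over the square root of the F statistic. The fit was tested on simulated data. Alternatives were DESeq2 1.42.0, limma-voom (limma 3.58.1), 2 other scalings, no filter, listed zeros at 9 reads, a replicate block, 2 groups alone and leaving out each library. Within groups, pairs of libraries differed by a chi-square of at least 74.8 per degree of freedom, so none was counted as a repeat deposit.

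The members, lists and tests were chosen with earlier results of these data known. Named were the 8 members, the remaining arms of their hairpins, the 2 most abundant of 9 further epithelial miRNAs, and the 3 miRNAs most like the family and miR-205-5p by Pearson correlation of log2 CPM. The low-level epithelial miRNAs miR-203-3p, miR-184-3p, miR-375-3p, miR-31-5p and miR-96-5p were named after their values were seen. Of the marker lists, those of podocyte, tubule, squamous epithelium, blood and liver are printed. Titles share numbers between groups, the unnumbered title being taken as 1. Deviations from group means of same-numbered high and normal glucose libraries had r of 0.298 to 0.322 over 260 miRNAs in 3 of 3 pairs. Same-numbered high glucose and mannitol libraries had r of 0.681, 0.663 and 0.0447, and mannitol and normal glucose libraries 0.491, 0.0847 and 0.113. The labels state no pairing, and what the numbers stand for was not tested. The main fit therefore took no libraries as paired, and the replicate block was an alternative only.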

Additional observations from a re-analysis of the deposited data

How the results depend on the processing

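Of 168 member fold changes (log2) under alternatives that keep all libraries of the 2 groups compared, 159 kept their sign and 9 changed it. Relative to the library constant these were -0.13 for miR-200b-3p, -0.16 for miR-200a-3p and -0.40 for miR-200a-5p in high glucose over mannitol, -0.12 for miR-200a-5p in high glucose over normal glucose, and 0.36 for miR-200b-3p, 0.07 for miR-429-3p, 0.28 for miR-200a-5p and 0.19 for miR-200c-3p in mannitol over normal glucose. Without the filter miR-200b-5p had -0.0021 in mannitol over normal glucose. That scaling moved the median of all tested miRNAs to -0.12, -0.59 and 0.50 in high glucose over normal glucose, high glucose over mannitol and mannitol over normal glucose.

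With a library left out, 15 of 189 member values changed sign. In high glucose over normal glucose the ranges were -0.06 to 0.35 for miR-429-3p and -0.11 to 0.36 for miR-200a-5p. In high glucose over mannitol they were -0.08 to 0.25 for miR-200a-5p and -1.63 to 0.15 for miR-200c-3p. In mannitol over normal glucose they were -0.16 to 0.02 for miR-200b-3p, -0.15 to 0.34 for miR-200a-3p, -0.18 to 0.24 for miR-200a-5p, -0.23 to 0.27 for miR-200b-5p and -1.31 to 0.19 for miR-200c-3p. No member passed under any alternative, the smallest adjusted p by edgeR, DESeq2 or limma-voom being 0.173. Over all miRNAs, calls were 2, 3 and 1 in the 3 comparisons without the filter, 1 by DESeq2 in high glucose over mannitol, and 0 to 1 there with a library left out, the 1 being without mannitol replicate 2. The cause was not tested.

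With the replicate number as a block edgeR called 0 miRNAs in each comparison, with 19, 52 and 17 at an unadjusted p under 0.05, against 10, 19 and 5 without it, and 7 of 7 members kept their sign in each. The smallest member adjusted p by edgeR under the block was 0.821, 0.408 and 0.998. Of the 9 libraries 5 correlated best with their own number.

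Low counts limit miR-200c-3p, miR-141-3p and miR-205-5p, whose listed zeros hide up to 9 reads, and 3 libraries a group leave wide intervals for every member.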

Other observations

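The ratio of the 3p to the 5p arm was noticed to be low in the replicate 1 libraries for miR-200a, and the same ratio was then counted in every hairpin with both arms listed in all 9 libraries. In 2 of 41 hairpins the 3 replicate 1 libraries all lay below the other 6, and in 1 of 41 all above. The 2 below were miR-200a and miR-362, the second at 1.19 to 1.58 against 2.19 to 2.90, and the 1 above was miR-93, at 0.0200 to 0.0287 against 0.00780 to 0.0181. For replicate 2 the counts were 5 below and 0 above, and for replicate 3 they were 0 and 0. This was seen after the values and was not tested.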
